A study of Mus musculus with 8 samples.

Results

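Proteasome genes were described here across RNA-seq of sorted mouse pachytene spermatocytes. They were found by name, as the protein-coding genes on standard chromosomes whose symbol is *Psma*, *Psmb*, *Psmc*, *Psmd*, *Psme* or *Psmf* followed by a number. This rule used no measured value and found 44 of the 22603 genes in the table. All 44 passed the filter on low values, a mean above 0.1 TPM (a transcript level corrected for gene length and scaled to the total of the sample) in at least 1 genotype, which 19462 protein-coding genes passed. The early-to-mid pachytene cells were taken from wildtype mice (C57BL/6J, postnatal day 15) and from *Setdb1* cKO mice of that age or older, with 2 samples of each genotype. The cKO mice are *Setdb1* flox/- with the *Ngn3-Cre* transgene, on the C57BL/6J background, and their floxed parent was homozygous for an EYFP allele at *Gt(ROSA)26Sor*. The recombined allele lacks part of the SET domain, which carries the methyltransferase activity. The wildtype mice carry none of these alleles. Among testis cells the Cre is specific to the germline, though some endocrine and digestive organs express it too, and the wildtype samples do not control for it. Each RNA extraction used 500 sorted cells, and no source says that the samples of a genotype came from separate animals, so the spread behind the p-values may be technical only.

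The proteasome degrades proteins that carry ubiquitin. Its 20S core is a barrel of outer alpha rings and inner beta rings, and the beta subunits PSMB5, PSMB6 and PSMB7 carry the peptidase sites. The 19S particle, made of PSMC ATPases and PSMD subunits, caps the barrel, binds ubiquitin chains and unfolds the substrate. Some subunits have alternatives. PSMB8, PSMB9 and PSMB10 replace the constitutive catalytic subunits in the immunoproteasome, and PSMB11 takes the place of PSMB5 in the thymus. In the testis, PSMA8 (alpha4s) replaces PSMA7 (alpha4) from meiosis onward, and the activator PA200, encoded by *Psme4*, caps the core in place of 19S or of the PA28 complexes. Cores with these testis subunits are called spermatoproteasomes, and mouse males without PSMA8 are infertile with arrest of spermatocytes.

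The bases upstream of the start were read at an X-linked chaperone gene, at the gene of the testis-linked activator and at the constitutive alpha4 gene, to which the comparisons return. RefSeq promoters (GRCm38.p6) matched 37 of the 44 genes. The 250 bases before the RefSeq start are given 5′ to 3′ on the strand of the gene, with matches to CCAAT and CCGGAAGT, on either strand, in capitals. The gene positions quoted further on come from GENCODE M21, whose starts differ. The ends of the *Psmd10* and *Psme4* windows lie inside those gene positions.
Psmd10 (chrX:140956712-140956961, minus strand): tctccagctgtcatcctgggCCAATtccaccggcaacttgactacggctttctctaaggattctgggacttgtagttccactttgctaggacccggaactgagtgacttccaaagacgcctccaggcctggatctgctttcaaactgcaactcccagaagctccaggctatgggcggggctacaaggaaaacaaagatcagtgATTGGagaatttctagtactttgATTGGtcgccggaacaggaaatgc
Psme4 (chr11:30771525-30771774, plus strand): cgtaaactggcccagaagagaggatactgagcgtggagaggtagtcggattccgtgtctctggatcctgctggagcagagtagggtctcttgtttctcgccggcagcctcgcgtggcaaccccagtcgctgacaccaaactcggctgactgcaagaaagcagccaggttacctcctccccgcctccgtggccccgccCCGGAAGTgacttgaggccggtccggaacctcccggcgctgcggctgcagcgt
Psma7 (chr2:180042465-180042714, minus strand): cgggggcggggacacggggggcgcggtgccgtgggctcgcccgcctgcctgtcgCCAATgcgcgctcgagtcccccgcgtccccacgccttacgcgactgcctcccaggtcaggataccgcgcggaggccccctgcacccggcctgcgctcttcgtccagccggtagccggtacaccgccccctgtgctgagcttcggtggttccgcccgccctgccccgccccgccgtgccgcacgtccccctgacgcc

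Over the 40 upstream windows of the matched members, CCAAT was found in 35.0%, beside 33.8% of all 32851 windows of that length. CCGGAAGT, a core sequence of ETS factors, was found in 15.0% beside 2.88%, in *Psmc1*, *Psmc2*, *Psmd6*, *Psmd12* and *Psme4*. TGACNNNGC, the antioxidant response element bound by NFE2L1 in mammals, was found in 12.5% beside 10.2%. GGCAGTT was found in 7.5% beside 3.33%, TGACGT in 10.0% beside 6.47% and GGAAGTG, which overlaps CCGGAAGT by part of its letters, in 12.5% beside 8.55%. Both strands were searched, and the 6 motifs are a description of these windows without a test.

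The samples differed beyond their genotype. Over log2 levels of all genes, r was 0.974 within wildtype and 0.923 within the cKO. Against wildtype it was 0.876 and 0.886 for cKO replicate 1 but 0.944 and 0.952 for cKO replicate 2. The targeted gene *Setdb1* was measured at 56.9 and 59.3 TPM in wildtype, against 28.7 and 37.2 TPM for the cKO, a difference that missed the threshold (limma adjusted p = 0.269) and passed it without cKO replicate 2 (adjusted p = 0.101). Of 13 spermatocyte markers, all were detected in every sample, and their summed level was 3108 and 3640 TPM in wildtype, against 1874 and 2000 TPM for the cKO. The summed level of 14 spermatid markers was 173 and 213 TPM in wildtype, against 1409 TPM in cKO replicate 1 and 361 TPM in the other cKO sample, and 3 of these genes (*Tnp1*, *Spaca4* and *Capza3*) were at 0 in some sample. Markers of other cells were present in all samples. Summed levels ran from 2012 to 2561 TPM for 10 Sertoli cell genes and from 100.0 to 822 TPM for 7 Leydig cell genes. They ran from 32.1 to 48.0 TPM for 8 peritubular and endothelial genes, from 49.9 to 93.0 TPM for 10 macrophage and leukocyte genes and from 240 to 524 TPM for 10 spermatogonial genes. In each of these lists cKO replicate 1 was highest, by little for the peritubular and endothelial genes.

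The germ cell subunit gene *Psma8* was one of the most abundant proteasome mRNAs in wildtype spermatocytes and fell in the cKO. Wildtype spermatocytes held 504 and 577 TPM, against 58.5 TPM in cKO replicate 1 and 165 TPM in the other. The genotypes did not overlap, and the cKO samples differed from each other by more than the wildtype samples did. Among the 44 genes *Psma8* ranked 2 in each wildtype sample, below *Psmc3* alone, and 37 and 17 in the cKO samples. The wildtype mean was 4.84-fold the cKO mean. On the log2(TPM + 1) scale the change was -2.44 (SE 0.47), with a 95% interval from -3.55 to -1.34, and it passed the threshold of an adjusted p under 0.2 (limma adjusted p = 0.102). Leaving out cKO replicate 1 gave -1.70, and leaving out cKO replicate 2 gave -3.18. The call is lost without a trend in the moderation of the variances (limma adjusted p = 0.201). It is also lost without either wildtype sample, settings in which no gene in the table passed. *Psma8* lies on chromosome 18 (14706151 to 14762301, GRCm38). In these bulk samples, fewer cells that express a gene and less RNA per cell cannot be told apart. Most spermatocyte markers moved with *Psma8*. Of the 13, 9 were below wildtype in both cKO samples (69.2%, beside 18.1% of all genes tested). The threshold was passed as lower by 2 (15.4%, beside 1.11% of all genes). These were *Sycp2* (299 and 322 against 147 and 173 TPM), a gene of the synaptonemal complex, and *Adad2* (169 and 179 against 31.5 and 41.3 TPM). *Piwil1*, a piRNA-binding protein gene of pachytene cells, had the same order of samples as *Psma8* (445 and 488 against 27.2 and 190 TPM) without passing the threshold. These 3 markers were named after their values were seen. Of the 13, 2 had a log2 change above 0. *Dmc1* lay above wildtype in both cKO samples (12.4 and 22.9 against 33.8 and 27.4 TPM, log2 change 0.81). *Rad51ap2* overlapped between the genotypes (log2 change 0.45). *Psma8* was also lowest in the sample with the highest summed level of every marker list other than the spermatocyte list. The sort was gated on pachytene cells, and the study's test sorts of wildtype testes held some other cells. The study found no spermatids in cKO testes and reads their genes as prematurely expressed. The part of any of these changes in the *Psma8* result was not tested.

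*Psma7*, which encodes the constitutive subunit for the same place in the alpha ring, was not lower in the cKO. It was measured at 127 and 129 TPM in wildtype, against 192 and 145 TPM for the cKO. The cKO samples lay above the wildtype samples, with a log2 change of 0.38 (SE 0.25) and an interval from -0.21 to 0.98 that did not pass the threshold (limma adjusted p = 0.579). *Psma7* lies on chromosome 2 (180036374 to 180042433, GRCm38). Near-identical stretches of the paralogues could let kallisto share reads between them, and their individual levels carry that uncertainty.

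Within each sample, *Psma8* outnumbered *Psma7* in wildtype, while in the cKO it did so by little in one sample and not in the other. The ratio of *Psma8* to *Psma7* TPM was 3.98 and 4.47 in wildtype, against 0.305 in cKO replicate 1 and 1.14 in the other. *Psma8* thus held 79.9% and 81.7% of the TPM of the pair in wildtype, against 23.4% and 53.2% for the cKO. Such a ratio does not depend on how a sample was scaled. The log2 ratio was 2.08 (SD 0.12, n = 2) in wildtype and -0.76 (SD 1.34, n = 2) in the cKO, a difference of -2.84 (exact two-sided permutation p = 0.333, the smallest that 2 samples against 2 can give). Leaving out cKO replicate 1 gave -1.89, and leaving out the other cKO sample gave -3.79.

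**Figure D1:**
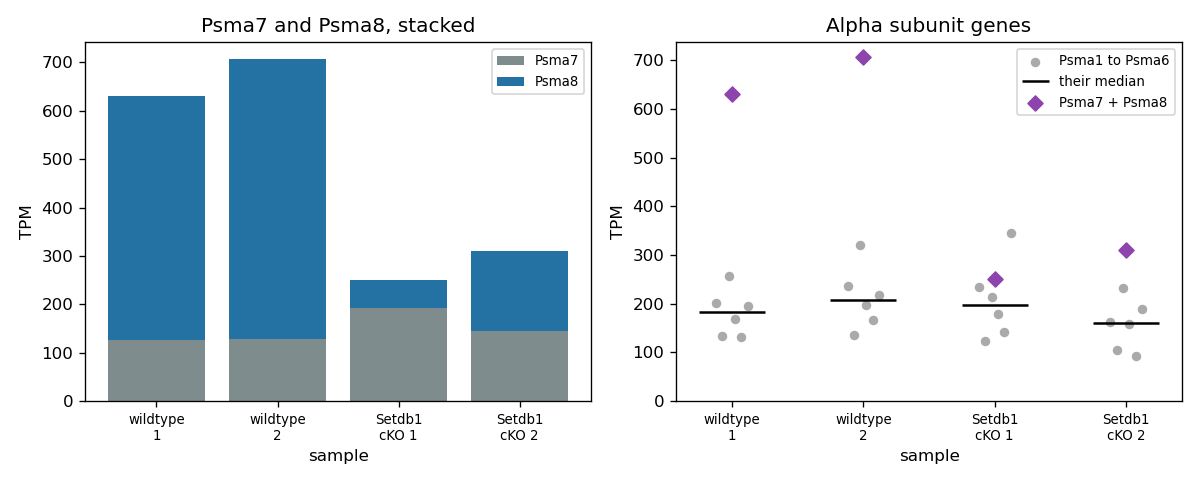
The left panel stacks the TPM of Psma7 and Psma8 in each of the 4 samples, and the right panel sets their sum beside the 6 other alpha subunit genes. The sum was 631 and 706 TPM in wildtype, against 250 and 310 TPM for the cKO, while the median of the other alpha genes stayed between 160 and 207 TPM.

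Together the paralogues stood far above the other alpha subunit genes in wildtype. Their sum was 3.47 and 3.41 times the median of *Psma1* to *Psma6* in the wildtype samples and 1.27 and 1.94 times in the cKO samples. *Psma7* alone stood at 0.695 and 0.622 of that median in wildtype and at 0.977 and 0.907 in the cKO. Of the other 6 alpha genes, 4 overlapped between the genotypes. *Psma2* and *Psma3* were below wildtype in both cKO samples, a pattern that 18.1% of all genes tested showed, while 26.3% showed the opposite one, and none of the 6 passed the threshold (limma adjusted p from 0.594 to 0.905). *Psma6* was the most variable in the cKO, at 344 and 189 TPM where wildtype had 195 and 218 TPM.

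PA200, the other testis-linked component, was not lower in the cKO either. *Psme4* was measured at 16.6 and 16.3 TPM in wildtype, against 18.7 and 27.7 TPM for the cKO. The cKO samples lay above the wildtype samples, one of them by little, and the log2 change of 0.45 (SE 0.34) had an interval from -0.37 to 1.27 and missed the threshold (limma adjusted p = 0.649). *Psme4* ranked between 38 and 41 among the 44 genes in every sample. It lies on chromosome 11 (30771726 to 30880361, GRCm38). The PA28 genes, whose complexes bind the same ends of the core, all overlapped between the genotypes. *Psme1* (PA28 alpha) was at 32.9 and 40.4 TPM in wildtype, against 72.8 and 39.8 TPM for the cKO, and *Psme2* (PA28 beta) at 44.9 and 77.4 against 72.8 and 71.4 TPM, with wildtype given first here and in what follows. *Psme3* (PA28 gamma, found in the nucleus) differed more within the genotypes than between them, with 112 and 39.7 TPM in wildtype, against 79.2 and 39.4 TPM for the cKO. *Psme4* amounted to 8.75% and 10.3% of the summed PA28 TPM in wildtype, against 8.31% and 18.4% for the cKO, so the genotypes overlapped (exact two-sided permutation p = 1.0).

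**Figure D2:**
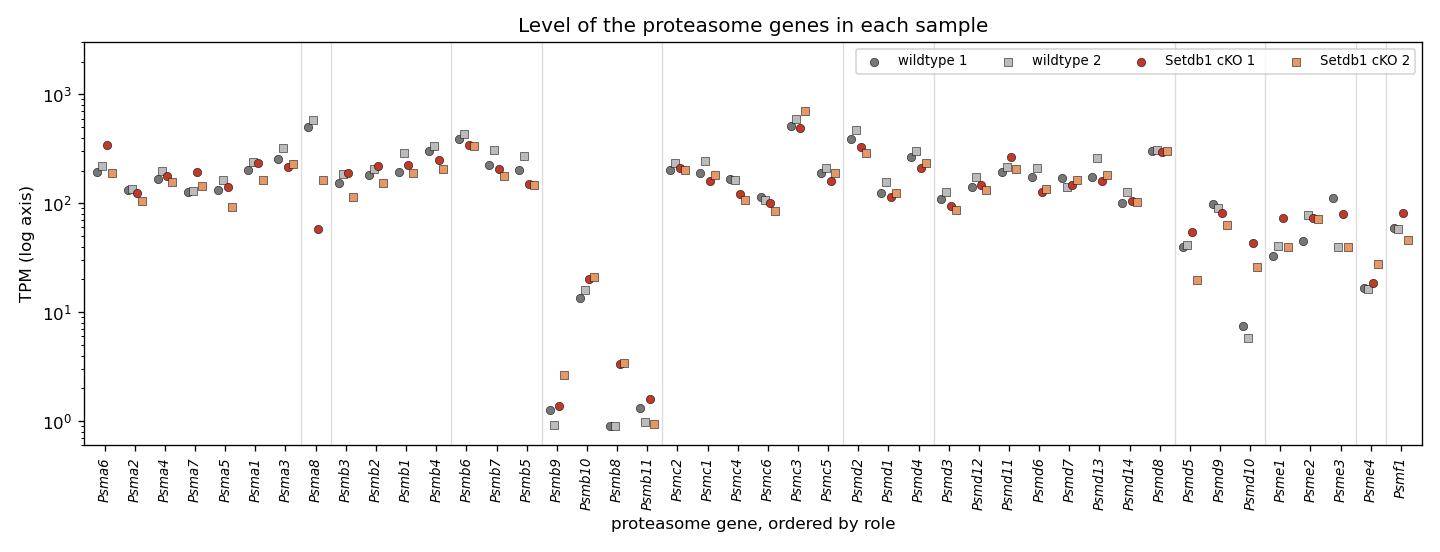
TPM of the 44 proteasome genes in each sample on a log axis, ordered by role and divided by lines between the groups, with circles for replicate 1 and squares for replicate 2. The 31 constitutive 20S and 19S genes lie between 85.5 and 701 TPM in every sample, Psma8 drops in the cKO, and Psmd10 and the immunoproteasome genes sit far lower.

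The other member past the threshold was *Psmd10*, which rose. It encodes gankyrin, a chaperone that binds an ATPase of the 19S base during assembly and is not part of the finished particle. It is the only proteasome gene on the X chromosome (140948429 to 140956728, GRCm38). *Psmd10* was measured at 7.54 and 5.79 TPM in wildtype, against 43.0 and 26.0 TPM for the cKO, so the genotypes did not overlap. The cKO mean was 5.17-fold the wildtype mean, with a log2 change of 2.18 (SE 0.40, limma adjusted p = 0.0912). With cKO replicate 1 left out it was 1.82, and with cKO replicate 2 left out 2.53. The call is lost without either wildtype sample, settings in which no gene in the table passed. X-linked genes are silenced at this stage in wildtype. Of the 782 X-linked genes tested, 27.6% passed the threshold as higher in the cKO, beside 3.48% of all genes. The median log2 change of the 782 was 1.03. In 72.5% of them the genotypes were apart with the cKO higher, as for *Psmd10*, beside 26.3% of all genes tested. The other chaperones of the 19S base are autosomal. *Psmd9* was lower in both cKO samples (98.2 and 90.3 against 80.7 and 63.5 TPM, limma adjusted p = 0.573), and *Psmd5* overlapped (39.4 and 41.1 against 54.4 and 19.9 TPM).

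Across the 44 genes the calls were therefore 1 higher and 1 lower, against 3.48% and 1.11% of all genes tested. At an unadjusted p under 0.05 there were 2 higher (*Psmd10* and *Psmb8*) and 2 lower (*Psma8* and *Psmb5*), beside 9.19% and 4.39% of all genes. The median log2 change was -0.20 over the 44 genes and 0.08 over all genes tested. Fits with 1 sample left out rest a genotype on 1 sample, so calls were counted only in fits with every sample. With cKO replicate 2 left out the log2 change was 0.74 for *Psma6*, 0.98 for *Psme1* and 1.20 for *Psmb8*. With cKO replicate 1 left out it was -0.13, 0.12 and 1.20.

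**Figure D3:**
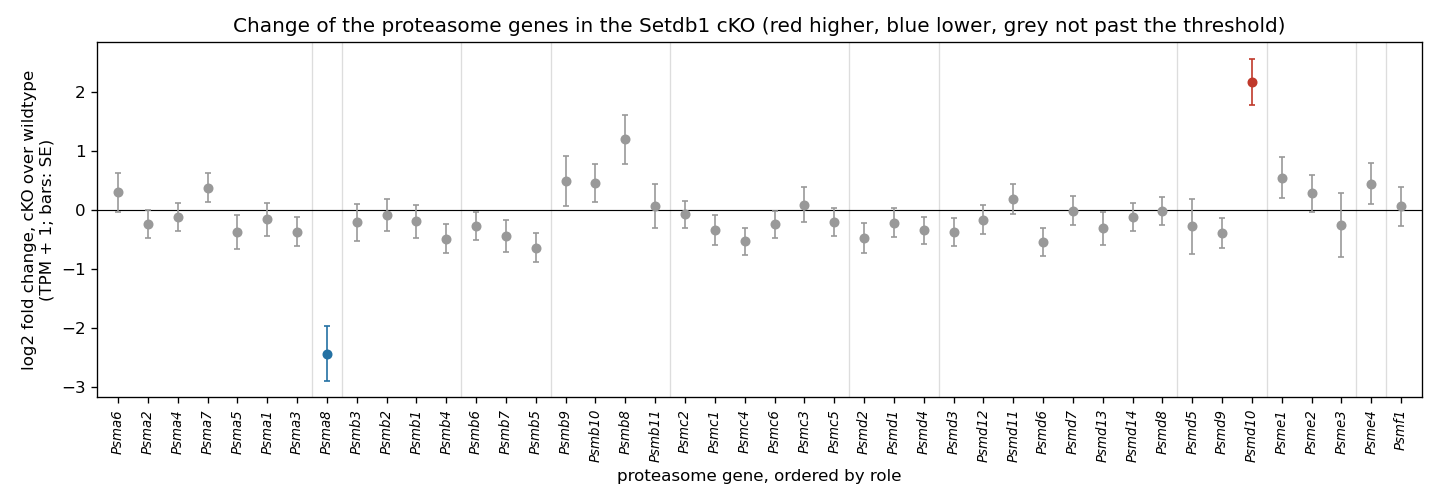
Log2 fold change of each proteasome gene in the cKO over wildtype on the TPM + 1 scale, with the limma standard error as bars, ordered by role. Psma8 (-2.44) and Psmd10 (2.18) passed the threshold, and 27 of the 31 constitutive 20S and 19S genes lie below 0 without passing it.

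The constitutive genes of the 20S core and of the 19S base and lid lay slightly lower in the cKO as a group, and none of the 31 passed the threshold (limma adjusted p from 0.343 to 0.991). Their median log2 change was -0.22, or -0.13 for cKO replicate 1 alone and -0.30 for the other, beside 0.08 over all genes. Of these, 27 had a value below 0 (87.1%, beside 43.9% of all genes tested). In 14 both cKO samples lay below both wildtype samples, or 45.2% beside 18.1% of all genes, and in 1 (*Psma7*) above, beside 26.3%. The size of the group's change depends on the scaling. The median was -0.24 with scaling by the median of gene ratios, where the median of all genes was 0.06. It was -0.15 with quantile normalization, where the median of all genes moved to -0.11. When rescaled to autosomal TPM it was -0.076, and the median of all genes moved to 0.18. The summed TPM of the 14 constitutive 20S genes was 2860 and 3427 in wildtype, against 3013 and 2407 for the cKO, which overlap (exact two-sided permutation p = 0.667). The summed TPM of the 17 genes of the 19S base and lid was 3518 and 4042 in wildtype, against 3236 and 3428 for the cKO, 0.882 of the wildtype mean (exact two-sided permutation p = 0.333, the smallest possible).

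The spread of levels among the constitutive genes was described within each sample. The highest was 5.10 and 5.51 times the lowest in the wildtype samples and 5.23 and 8.20 times in the cKO samples. *Psmc3*, which encodes the ATPase Rpt5, was the highest throughout (513 and 590 against 490 and 701 TPM). The median constitutive gene was at 189 and 214 TPM in wildtype, against 190 and 165 TPM for the cKO. All 44 genes together held 0.659% and 0.895% of the TPM in wildtype, against 0.686% and 0.672% for the cKO. These shares depend on the sample totals. The highest level of any autosomal gene was 150179 and 29640 TPM in the wildtype samples, against 59453 and 41036 TPM for the cKO. These values also enter the rescaling to autosomal TPM.

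Among the core's beta subunits, all 3 catalytic genes had lower values in both cKO samples, as 18.1% of all genes did, and none of the 3 passed the threshold. *Psmb5*, which encodes the chymotrypsin-like subunit, was measured at 202 and 270 TPM in wildtype, against 152 and 148 TPM for the cKO. Its log2 change of -0.64 (SE 0.25) had the smallest p of the constitutive genes and missed the threshold (limma adjusted p = 0.343). *Psmb7* (trypsin-like) was at 222 and 308 against 207 and 179 TPM, and *Psmb6* (caspase-like) at 390 and 429 against 345 and 333 TPM. Of the 4 structural beta genes, *Psmb4* was lower in both cKO samples (302 and 336 against 248 and 207 TPM), and *Psmb1*, *Psmb2* and *Psmb3* overlapped.

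In the 19S base, 4 of the 6 ATPase genes had both cKO samples below both wildtype samples, beside 18.1% of all genes, and none of the 6 passed the threshold. *Psmc4* (Rpt3) was at 168 and 164 TPM in wildtype, against 123 and 107 TPM for the cKO, a log2 change of -0.53 (SE 0.23, limma adjusted p = 0.379). *Psmc1*, *Psmc5* and *Psmc6* were closer together, and *Psmc2* and *Psmc3* overlapped. The scaffold gene *Psmd2* (Rpn1) was at 387 and 473 TPM against 327 and 290 TPM, and the ubiquitin receptor gene *Psmd4* (Rpn10) at 268 and 299 TPM against 212 and 233 TPM. *Psmd1* (Rpn2), the other scaffold gene, overlapped (123 and 157 against 114 and 126 TPM). In the lid, *Psmd6* (Rpn7) had the lowest log2 change at -0.54 (173 and 212 against 128 and 134 TPM, limma adjusted p = 0.387). *Psmd3* (Rpn3) was also lower in both cKO samples, and the other 6 lid genes overlapped. Among them was *Psmd14*, which encodes the deubiquitinase Rpn11 and was at 101 and 127 TPM in wildtype, against 105 and 103 TPM for the cKO. *Psmd8* (Rpn12) hardly varied, at 300.4 and 308 TPM against 298 and 304 TPM. *Psmf1*, which encodes the core inhibitor PI31, overlapped as well (59.1 and 57.9 against 81.0 and 45.9 TPM).

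The immunoproteasome genes were scarce in both genotypes and higher in the cKO without passing the threshold. *Psmb8* (beta5i) was measured at 0.896 and 0.910 TPM in wildtype, against 3.36 and 3.38 TPM for the cKO. Its samples agreed within each genotype, and its log2 change was 1.20 (SE 0.41, limma adjusted p = 0.282). Leaving out either cKO sample gave 1.20 again. *Psmb9* (beta1i) was at 1.27 and 0.927 TPM against 1.37 and 2.67 TPM, and *Psmb10* (beta2i), the most abundant of them, at 13.5 and 16.1 TPM against 20.1 and 21.1 TPM. The genotypes did not overlap in any of the 3, for *Psmb9* by little, and 26.3% of all genes had both cKO samples above wildtype in this way. Levels near 1 TPM may rest on few reads, and the table gives no counts from which to tell. The thymic gene *Psmb11* was near 1 TPM throughout (1.31 and 0.990 against 1.61 and 0.942 TPM).

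Set against their constitutive counterparts, the immunoproteasome genes made up a small part of the catalytic mRNA in both genotypes. The summed TPM of *Psmb8*, *Psmb9* and *Psmb10* was 1.92% and 1.78% of that of *Psmb5*, *Psmb6* and *Psmb7* in wildtype and 3.53% and 4.11% in the cKO, a difference of 1.05 on the log2 scale (exact two-sided permutation p = 0.333, the smallest possible). For *Psmb8* against *Psmb5* the values were 0.443% and 0.337% in wildtype and 2.21% and 2.29% in the cKO. For *Psmb10* against *Psmb7* they were 6.05% and 5.22% against 9.73% and 11.8%. Genes of antigen processing and the interferon response (16 genes) gave no call, where 3.48% of all genes tested were called higher and 1.11% lower. Of the 16, 10 overlapped between the genotypes, as did 10839 of the 19462 genes tested. The median log2 change of the 16 genes, 0.60, rested mainly on cKO replicate 1, with 0.70 for that sample and 0.14 for the other. Of their values 18.8% were below 0, beside 43.9% of all genes tested. *Irf1*, a transcription factor of that response, was at 51.9 and 34.7 TPM in wildtype, against 72.8 and 87.8 TPM for the cKO (limma adjusted p = 0.261). Macrophage and leukocyte markers summed to 49.9 and 67.8 TPM in wildtype, against 93.0 and 57.0 TPM for the cKO, and *H2-Aa* was at 0 in 1 wildtype sample. The part of such cells in the immunoproteasome values was not tested.

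**Figure D4:**
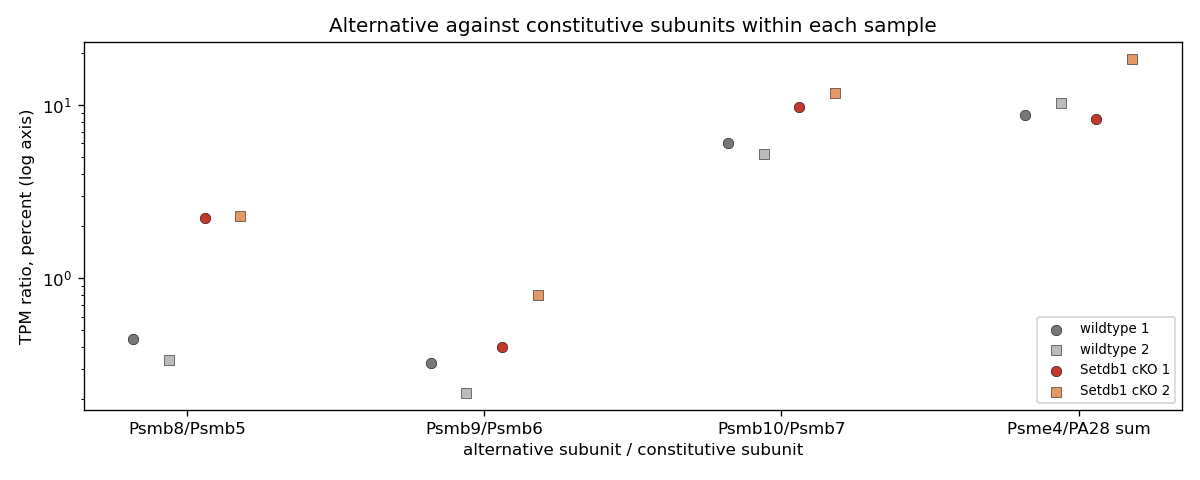
TPM of each alternative subunit gene as a percent of its constitutive counterpart in the same sample, on a log axis, with the PA28 sum of Psme1, Psme2 and Psme3 as the counterpart of Psme4. For the immunoproteasome genes both cKO samples lie above both wildtype samples, and for Psme4 (8.31% and 18.4% in the cKO) the genotypes overlap.

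Genes that act on the proteasome without being found by the rule were described from lists. Over all genes tested, 3.48% were called higher and 1.11% lower. Of 5 chaperones of 20S assembly, *Psmg2* was lower (127 and 130 against 72.9 and 67.1 TPM, limma adjusted p = 0.186). *Psmg2* no longer passed without cKO replicate 1 (adjusted p = 0.205) or without either wildtype sample. Its call is also lost with quantile normalization, with rescaling to autosomal TPM, with all biotypes and without a trend (adjusted p = 0.207, 0.392, 0.203 and 0.336). All 5 had a value below 0, beside 43.9% of all genes, with a median log2 change of -0.64. Of 7 other 19S proteins and associated factors, *Fbxo7*, which encodes a ubiquitin ligase subunit that binds PI31, was lower (99.1 and 126 TPM against 47.2 and 54.7 TPM, log2 change -1.12, limma adjusted p = 0.143). *Fbxo7* no longer passed with rescaling to autosomal TPM (limma adjusted p = 0.279) or without a trend (limma adjusted p = 0.269). Its call was also lost without cKO replicate 1 and, like every call, without either wildtype sample. No member of the lists of regulators of proteasome genes (6 genes), of shuttle factors and the VCP segregase (11 genes) or of ubiquitin and E1 genes (6 genes) passed. *Akirin2*, which encodes a factor that brings proteasomes into the nucleus, came nearest among the regulators (51.5 and 73.0 against 102 and 187 TPM, limma adjusted p = 0.235). Its log2 change was 1.16, with 1.59 when cKO replicate 1 was left out and 0.73 when cKO replicate 2 was.

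Processed pseudogenes could take reads from their parents. The table holds *Psmb5-ps*, *Psmb6-ps2* and *Psmb7-ps2* as separate rows, at no more than 1.71, 2.56 and 1.56 TPM in any sample, against 148 TPM or more for the parents.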

How the data were processed

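RNA-seq of sorted pachytene spermatocytes was analysed for 2 wildtype and 2 *Setdb1* cKO samples; the 4 ChIP-seq samples were not analysed here. The authors quantified single-end reads of amplified cDNA with kallisto (0.44.0) on GRCm38 and summed transcripts per gene with sleuth (0.30.0). The deposited values are TPM, treated as a signal because the columns sum to between 942186 and 1109725. The table holds no counts, so depth and counting error are unknown. Its p, q and fold change columns hold the authors' comparison and were not used. Log2(TPM + 1) values of 19462 protein-coding genes above 0.1 TPM were compared with limma 3.58.1 in R 4.3.3 (trended eBayes, prior df 4.76). P-values were adjusted over all these genes (Benjamini-Hochberg), and calls needed an adjusted p below 0.2, as in the study. Sleuth was not rerun. Ratios and sums were compared by an exact permutation test over samples (scipy 1.17.1). The fit was tested on simulated data. Members, lists and motifs were chosen with earlier results of these data known. Every member could be named, with list genes past the threshold and up to 2 more per list with the smallest p. Positions are from GENCODE M21. Alternatives were other pseudocounts (0.1 and 0.5), filters, scalings, biotypes and moderation, a replicate block, and leaving out each sample.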

Additional observations from a re-analysis of the deposited data

How the results depend on the processing

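The counts of 1 higher and 1 lower proteasome gene were the same with either smaller pseudocount, either other filter, every biotype kept and all 3 other scalings. Without a trend in eBayes 0 members were lower, with *Psma8* at -2.44 (limma adjusted p = 0.201). Leaving out 1 sample gave 0 to 4 higher and 0 to 1 lower members, and *Psma8* changes of -3.18 to -1.70. The count of higher members was largest without cKO replicate 2, the fit that also called the most genes in the whole table. Fits without 1 sample rest a genotype on 1 sample, so these member counts were not taken as calls. The *Psma8* call was lost without either wildtype sample, where no gene passed. The median of the constitutive genes was -0.076 when rescaled to autosomal TPM and ran from -0.34 to -0.13 without 1 sample. The *Psme4* to PA28 log2 ratio, 0.38 higher in the cKO, turned to -0.19 without cKO replicate 2, and without 1 sample it ran from -0.19 to 0.96. The causes were not tested. Replicate numbers are shared, but the samples of a number did not deviate together (r = 0.03 across 13289 genes). With the replicate block the counts were 1 higher and 1 lower, and *Psma8* stayed at -2.44 (adjusted p = 0.0289), while *Akirin2* passed (adjusted p = 0.106). The 2 samples per genotype and the missing counts limit what can be called.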
